A study of Mus musculus with 11 samples.

Results

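The imprinted genes Peg10, Grb10, H19, Peg3, Mest, Dlk1, Meg3, Plagl1, Cdkn1c and Ndn were followed across bulk RNA sequencing libraries of mouse primary neonatal lung fibroblasts. They were taken by symbol as the members of a growth-related imprinted group, and all 10 had an entry among the 32868 named genes of the deposited table. The 11 libraries came from wild-type (WT) cells and from cells labelled PAD2KO, which lack peptidylarginine deiminase 2, an enzyme encoded by Padi2 that turns arginine residues of proteins into citrulline. The labels name 2 batches. WT 1, 3 and 4 belong to batch 1 together with PAD2KO 1, 2 and 3, while batch 2 consists of WT 5, 6 and 7 and of PAD2KO 6 and 7. All cells were neonatal and had been sorted by flow cytometry; the gate, the strain, the exact age, the part of Padi2 that was removed and any treatment, including the tumour necrosis factor named in the title of the series, are not given in the sources used here.

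Imprinted genes are expressed mainly from the copy inherited from a given parent, because methylation marks set in the egg or sperm persist at control regions next to them. Peg10, Peg3, Mest, Dlk1, Plagl1 and Ndn are known as paternally expressed, and H19, Meg3, Cdkn1c and, in most tissues, Grb10 as maternally expressed. Many of these genes act on fetal and neonatal growth and decline after birth in many organs, the lung among them. The deposited values sum both parental copies, so they give the level of a gene and say nothing of which copy it came from.

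Sequences just before the transcription start were read for the genes whose batch difference passed the test in both genotypes, Grb10, Plagl1 and Ndn, and for Peg3, the other abundant member, which moved little. RefSeq promoter windows of the GRCm38.p6 assembly were found for 7 of the 10 members, 11 windows in all, and the 250 bases before each start were used. Capitals mark CpG dinucleotides, the sites at which imprinting marks are written.
Grb10, chr11:12037421-12037670, minus strand: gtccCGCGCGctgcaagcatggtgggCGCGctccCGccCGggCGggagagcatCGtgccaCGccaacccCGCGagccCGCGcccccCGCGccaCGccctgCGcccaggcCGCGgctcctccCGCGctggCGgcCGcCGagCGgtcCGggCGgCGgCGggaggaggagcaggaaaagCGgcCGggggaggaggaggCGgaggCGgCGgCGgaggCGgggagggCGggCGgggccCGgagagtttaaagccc
Plagl1, chr10:13090582-13090831, plus strand: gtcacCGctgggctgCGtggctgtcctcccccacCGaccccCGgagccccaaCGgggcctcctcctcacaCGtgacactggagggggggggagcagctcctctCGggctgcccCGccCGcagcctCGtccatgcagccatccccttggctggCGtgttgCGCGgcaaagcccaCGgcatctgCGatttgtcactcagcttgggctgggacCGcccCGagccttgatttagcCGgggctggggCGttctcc
Ndn, chr7:62348027-62348276, plus strand: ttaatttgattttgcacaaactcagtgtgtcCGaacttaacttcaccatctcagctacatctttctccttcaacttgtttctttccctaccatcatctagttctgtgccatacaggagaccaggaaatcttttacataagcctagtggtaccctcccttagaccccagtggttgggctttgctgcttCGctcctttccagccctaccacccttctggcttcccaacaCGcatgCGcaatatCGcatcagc
Peg3, chr7:6730420-6730669, minus strand: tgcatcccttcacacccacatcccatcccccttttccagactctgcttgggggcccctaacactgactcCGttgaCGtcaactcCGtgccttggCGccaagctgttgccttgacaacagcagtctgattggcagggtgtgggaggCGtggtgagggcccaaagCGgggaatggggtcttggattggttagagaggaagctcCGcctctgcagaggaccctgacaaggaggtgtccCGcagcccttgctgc
Grb10 has a pair of windows, and the one richer in CpG is shown; the values do not tell which start was used. The Grb10 window shown held 40 CpG and 81.2% G or C, and 98.7% of all 32851 windows in the RefSeq table held fewer CpG. The other Grb10 window, at chr11:12027972-12028221, held 8 CpG and 54% G or C, with 57% of windows holding fewer. The Plagl1 window held 19 CpG and 70.4% G or C, with 80.3% of windows holding fewer. The Ndn window, with 5 CpG and 47.2% G or C, lay close to the median window, which had 6 CpG and 52.4% G or C. Peg3 had 8 CpG and 60.4% G or C. The windows shown for Grb10, Plagl1 and Ndn thus had CpG contents from below the median to near the top of the range. The top value rests on the richer Grb10 window. Peg10, which passed between batches in WT alone, had no window. The hexamer TGCCGC, known to be bound in its methylated form by the imprint-maintaining zinc-finger protein ZFP57, was searched on both strands. It was in 4 of the 11 member windows (a pair of overlapping Mest windows, 1 of Meg3 and that of Plagl1) and in 8.68% of all windows. The Mest pair shares the same matches. The hexamer holds a CpG, and the share over all windows was not matched for CpG content. No methylation was measured, and a match in these letters is a description of the sequence.

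Named genes held 962633 to 1421243 counts a library, and the limit set by 0 counts was 2.11 to 3.12 CPM. CPM are counts scaled to a common library total, with TMM factors in all CPM levels below but the group sums of H19. Padi2 itself had 3 counts over all WT and 9 over all PAD2KO libraries, at most 4 in a library, so its level could not check the genotype labels at this depth. The labels do not say whether libraries of a group came from separate animals or cultures, so the spread behind every p-value here is that among libraries and may be technical. All 9 fibroblast markers had counts, summing to 12420 to 16330 CPM in WT and 11730 to 13560 in PAD2KO of batch 1, and to 6491 to 7323 and 6089 to 6730 in batch 2. Of 8 lung epithelium markers, 6 had counts and summed to 13.2 to 41.3 CPM, with Sftpc and Scgb1a1 at 0 in every library. The 7 endothelium markers summed to 7.85 to 20.9 CPM. The 7 immune markers summed to 14.3 to 60.8 CPM in the groups other than WT of batch 2, where they ranged from 33.5 to 217.6 CPM. The 4 mesothelium markers summed to 84.8 to 336.7 CPM in batch 1 and 40.0 to 83.4 CPM in batch 2. In bulk RNA, fewer cells of a type and less RNA per cell cannot be told apart.

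Levels of different genes were compared per length, on the deposited scale of TPM, which divides counts by transcript length and library total. Grb10, an adaptor that binds the insulin and IGF1 receptors and dampens their signal, had the highest median level, 291.6 TPM, with a range of 78.2 to 446.6 TPM over the 11 libraries. Peg3, a large zinc-finger protein, followed with a median of 257.2 TPM and a range of 150.3 to 314.6 TPM. Grb10 exceeded Peg3 in 6 of the 11 libraries, so the order of these neighbours was not stable over the libraries, while Peg3 exceeded the next gene in all 11.

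Below them came Meg3, a long noncoding RNA, with a median of 61.3 TPM (24.2 to 98.9 TPM), and Ndn, the growth-restraining protein necdin, with 40.4 TPM (25.9 to 53.4 TPM). Plagl1, a zinc-finger transcription factor that restrains the cell cycle, had a median of 38.4 TPM and a wide range, 8.25 to 79.2 TPM. Meg3 exceeded Ndn in 8 of 11 libraries and Ndn exceeded Plagl1 in 6 of 11. These 3 genes therefore overlapped, and 9 of 11 libraries had Plagl1 above the next gene.

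At the lower end stood Mest, which encodes a hydrolase-fold protein of the endoplasmic reticulum, with a median of 8.34 TPM (3.67 to 23.7 TPM), and H19, a noncoding RNA that hosts a microRNA, with 8.10 TPM (0 to 50.4 TPM). Mest exceeded H19 in 4 of 11 libraries, fewer than the reverse. Peg10, a protein of retrotransposon origin with roles in the placenta, had a median of 5.62 TPM (2.94 to 12.0 TPM) and exceeded the next gene in all 11 libraries. Dlk1, a transmembrane relative of the Notch ligands, and Cdkn1c, which encodes the cyclin-dependent kinase inhibitor p57, were lowest, with medians of 2.79 TPM (0 to 4.96 TPM) and 1.15 TPM (0 to 6.81 TPM). Together the 10 genes took 0.139% to 0.336% of a library's named counts, and Grb10 with Peg3 made up 82.7% to 92.0% of that.

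**Figure D1:**
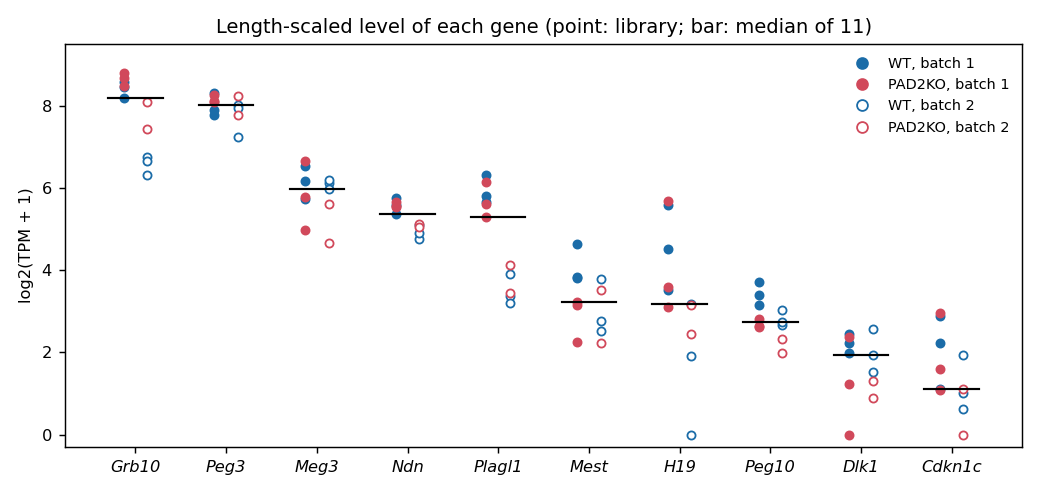
Deposited level of each gene per library as log2 of TPM plus 1 (vertical axis), with genes ordered by their median TPM and the bar at the median of 11 libraries. Grb10 and Peg3 lead with medians of 291.6 and 257.2 TPM, and the open points of batch 2 lie below the filled points of batch 1 for Plagl1 and Grb10.

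Counts were tested for 7 of the 10 members. H19, Dlk1 and Cdkn1c did not pass the filter on low counts and are described apart. The first question was which members differed between PAD2KO and WT cells.

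Peg10 was lower in PAD2KO cells over both batches. In batch 1 it was at 49.8, 61.8 and 38.9 CPM in WT 1, WT 3 and WT 4. In PAD2KO 1, PAD2KO 2 and PAD2KO 3 it was at 27.7, 29.9 and 26.4 CPM. The groups did not overlap: the lowest WT library of batch 1 stood above the highest PAD2KO library. In batch 2 Peg10 was at 39.3, 29.8 and 30.6 CPM in WT 5, WT 6 and WT 7 and at 16.2 and 22.0 CPM in PAD2KO 6 and PAD2KO 7. Again every WT library was above both PAD2KO libraries, and all 5 PAD2KO libraries lay below the WT mean of their batch. These levels rest on few reads, from 20 counts in PAD2KO 6 to 87 in WT 3.

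Over both batches the fitted difference of Peg10 was -0.83 ± 0.162 (log2, SE), 1.78-fold lower, and edgeR's quasi-likelihood test gave a Benjamini-Hochberg adjusted p of 0.0216. It was the only member of 7 to pass, and 19 of 9932 genes passed in this comparison, 0.191% of those tested. The members were chosen with this call known, so the call and the count of members are not independent support. Within batch 1 the difference was -0.85 ± 0.206 (edgeR adjusted p = 0.107), and within batch 2 it was -0.81 ± 0.270 (edgeR adjusted p = 0.108). The difference between the batches in this effect was 0.04 ± 0.354 (edgeR adjusted p = 0.980). The direction was the same in all 18 alternative fits, with values from -0.91 to -0.72, and the call was kept in 10 of them. It was lost with offsets from gene lengths (-0.83, adjusted p = 0.332), without the batch term (-0.77, adjusted p = 1.00), with the replicate block (-0.89, adjusted p = 0.224), and without WT 3 (-0.72, 0.144), WT 5 (-0.78, 0.0902), PAD2KO 2 (-0.85, 0.0524), PAD2KO 3 (-0.80, 0.0846) or PAD2KO 6 (-0.78, 0.0773), the second value being the adjusted p.

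Sgce, which encodes epsilon-sarcoglycan, starts next to Peg10 from the same imprinted control region on the opposite strand and is likewise paternally expressed. It was at 99.7, 104.4 and 82.6 CPM in WT and 83.9, 70.9 and 85.7 CPM in PAD2KO of batch 1, ranges that overlap. Batch 2 values were 46.6, 54.0 and 41.2 CPM in WT and 54.3 and 54.9 CPM in PAD2KO, the PAD2KO libraries lying just above the highest WT library. Its genotype difference was -0.09 ± 0.121 over both batches (edgeR adjusted p = 0.922), -0.26 in batch 1 and 0.19 in batch 2. Peg10 and Sgce were not tested against each other.

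The tested genes whose levels followed Peg10 most closely over the 11 libraries, out of 8110 compared, were Kdm4b, Rin2 and Ints6l. Likeness was the root mean square difference of log2 CPM after each gene was centred on its mean. It was 0.25 for Kdm4b, which encodes a histone lysine demethylase, 0.28 for Rin2, which encodes an exchange factor of RAB GTPases, and 0.28 for Ints6l, while the median over the genes compared was 0.55. Kdm4b averaged 28.2 ± 4.67 (SD, n = 3) CPM in WT and 19.6 ± 1.33 (SD, n = 3) CPM in PAD2KO of batch 1. In batch 2 it averaged 21.5 ± 3.72 (SD, n = 3) and 15.1 ± 0.789 (SD, n = 2) CPM. All 11 libraries entered this measure, so it reflects batch as well as genotype. Kdm4b was picked by this likeness, so its group levels follow from the choice and are not separate support for the Peg10 difference.

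**Figure D2:**
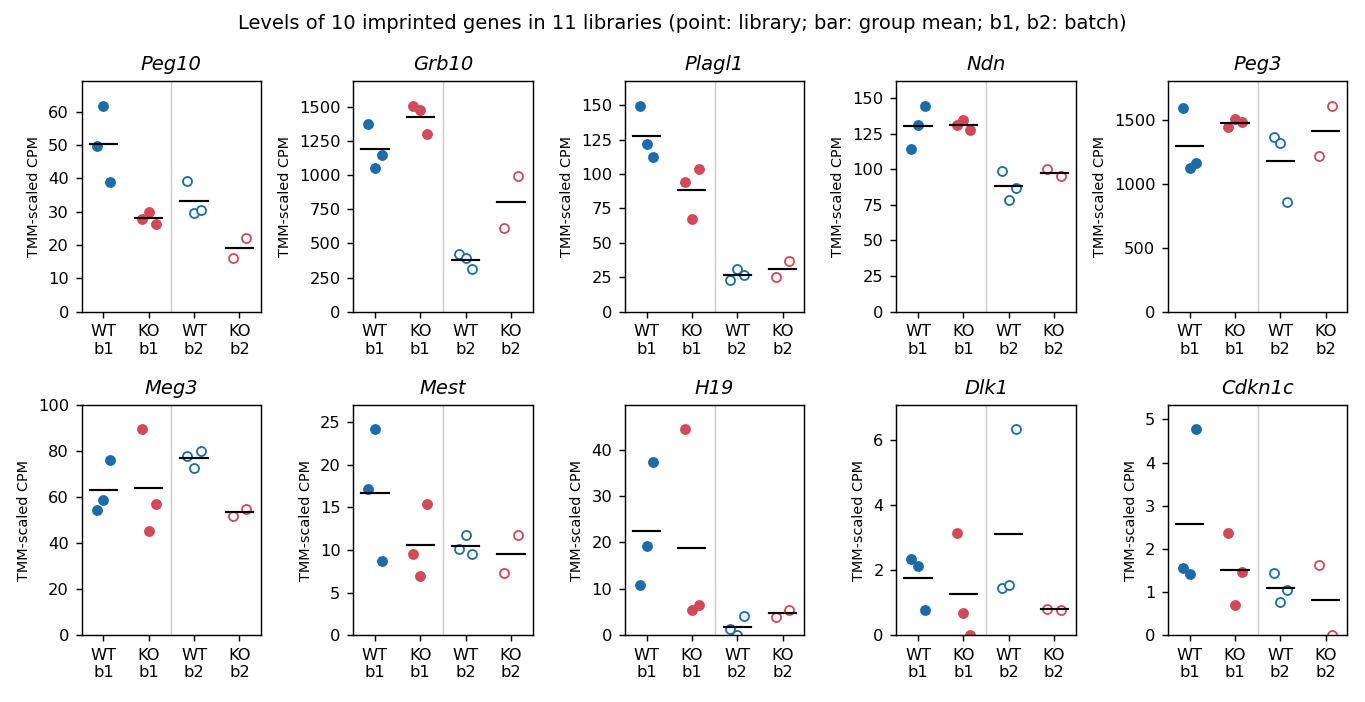
TMM-scaled CPM of each of the 10 genes (vertical axes, each starting at 0) in WT and PAD2KO (KO) libraries of batch 1 (b1, filled) and batch 2 (b2, open), with points for libraries and bars for group means. All PAD2KO points of Peg10 lie below the WT points of their batch, Grb10 is higher in PAD2KO of batch 2, and Plagl1 and Grb10 fall from batch 1 to batch 2.

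Grb10 was higher in PAD2KO cells of batch 2. It was at 425, 394 and 316 CPM in WT 5, WT 6 and WT 7, against 615 and 994 CPM in PAD2KO 6 and PAD2KO 7. The groups did not overlap, but the PAD2KO libraries were far apart. In batch 1 it was at 1372, 1055 and 1150 CPM in WT 1, WT 3 and WT 4 and at 1507, 1476 and 1298 CPM in PAD2KO 1, PAD2KO 2 and PAD2KO 3. There the ranges overlapped, although all 5 PAD2KO libraries of the study were above the WT mean of their batch.

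In batch 2 the fitted difference of Grb10 was 1.08 ± 0.179, 2.12-fold higher, with an edgeR adjusted p of 0.00312. It was the only member of 7 to pass in a comparison in which 309 of 9932 genes, 3.11%, passed. The value fell to 0.70 without PAD2KO 7 and rose to 1.39 without PAD2KO 6, and the call was kept in 17 of 18 alternatives (with the replicate block, 1.14 and an adjusted p of 0.0781). In batch 1 the difference was 0.26 ± 0.157 (edgeR adjusted p = 0.921), and over both batches it was 0.62 ± 0.180 (edgeR adjusted p = 0.398; DESeq2 gave 0.63 with an adjusted p of 0.0378).

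The test of whether the Grb10 difference itself differed between the batches gave 0.82 ± 0.239 with an edgeR adjusted p of 0.123, which missed the threshold. It was called by DESeq2 (0.83, adjusted p = 0.0272), without the filter on low counts (0.85, adjusted p = 3.20e-05) and without PAD2KO 6 (1.13, adjusted p = 0.000902). Of the 7 members, 0 passed this test in edgeR, 2 (Grb10 and Plagl1) had an unadjusted p under 0.05 and 1 passed in DESeq2. The share of all genes that passed was 1.62% (161 genes), and 1150 of 9932 had an unadjusted p under 0.05.

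Contractile genes of the smooth muscle and pericyte marker list were also higher in PAD2KO of batch 2. The 7 markers, with Acta2 the most abundant, summed to 1510 to 1903 CPM in WT and 3954 to 5054 CPM in PAD2KO of batch 2. In batch 1 they summed to 6651 to 7111 CPM in WT and 4973 to 7677 CPM in PAD2KO. Of the 5 that were tested, 4 were higher in PAD2KO of batch 2, where 3.11% of all genes passed in either direction. They were Acta2 by 1.49, Cnn1 by 1.26, Myh11 by 1.79 and Tagln by 1.09 on the log2 scale. The pericyte gene Rgs5, too low to test, went the other way, at 7.28, 7.05 and 12.7 CPM in WT and 1.62 and 1.57 CPM in PAD2KO. Cspg4 averaged 4.25 CPM in WT and 1.60 CPM in PAD2KO, with overlap. In batch 1, where Grb10 differed by 0.26, all 5 tested markers had values below 0 (median -0.13) and 0 passed in edgeR or DESeq2, with 1 at an unadjusted edgeR p under 0.05. Such a p was reached there by 545 of all 9932 genes. Of 4 mesothelium markers, Msln was higher by 3.56 in PAD2KO of batch 2, whereas Wt1 was at -0.86, Lrrn4 at 0.38 and Upk3b at 1.06 without passing, and the summed list overlapped between the genotypes (43.3 to 78.6 CPM in WT and 40.0 to 83.4 CPM in PAD2KO). Fibroblast markers differed in batch 2 as well, beside 3.11% of all genes. Of 8 tested, 1 was higher in PAD2KO (Thy1, 0.85) and 2 were lower (Dcn, -1.56, and Col3a1, -0.55). In batch 1 and over both batches 0 of them passed in edgeR or DESeq2. The part of the cells of these marker lists in the Grb10 difference was not tested.

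Plagl1 values in batch 1 lay lower in PAD2KO than in WT, and the difference did not pass the test. The gene was at 149.5, 121.5 and 112.0 CPM in WT 1, WT 3 and WT 4 and at 94.2, 67.4 and 103.3 CPM in PAD2KO 1, PAD2KO 2 and PAD2KO 3, groups that did not overlap. The difference was -0.53 ± 0.158 (edgeR adjusted p = 0.306; -0.22 with offsets from gene lengths). Batch 2 libraries were at 23.3, 31.3 and 26.4 CPM in WT and at 25.1 and 36.9 CPM in PAD2KO, which overlap, and the difference was 0.20 ± 0.262 (edgeR adjusted p = 0.814). The test of the difference between batches gave 0.73 ± 0.307 (edgeR adjusted p = 0.318).

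In batch 1, 0 of the 7 members passed in edgeR; 2 (Peg10 and Plagl1) had an unadjusted p under 0.05 and DESeq2 called 0. In this comparison 13 of 9932 genes, 0.131%, passed, and 545 had an unadjusted p under 0.05. The medians of the 7 members' genotype differences were -0.22 over both batches, 0.01 in batch 1 and 0.14 in batch 2 on the log2 scale, where the medians over all genes tested were within 0.01 of 0.

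The other tested members did not pass in any genotype comparison. Meg3 was at 54.5, 59.0 and 76.3 CPM in WT and 89.4, 45.2 and 57.1 CPM in PAD2KO of batch 1, fully overlapping. Batch 2 levels were 77.9, 72.8 and 80.3 CPM in WT and 51.8 and 54.9 CPM in PAD2KO. The batch 2 groups did not overlap, and the difference was -0.53 ± 0.222 (edgeR adjusted p = 0.252; -0.97 and an adjusted p of 0.429 with offsets from gene lengths).

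Mest was low and variable. It was at 17.1, 24.2 and 8.74 CPM in WT and 9.498, 6.95 and 15.4 CPM in PAD2KO of batch 1, a difference of -0.67 ± 0.358 (edgeR adjusted p = 0.904). Its batch 2 levels were 10.2, 11.8 and 9.51 CPM in WT and 7.29 and 11.8 CPM in PAD2KO, which overlap.

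Peg3 was at 1593, 1126 and 1158 CPM in WT and 1445, 1505 and 1480 CPM in PAD2KO of batch 1. The batch 2 libraries were at 1365, 1316 and 855 CPM in WT and 1218 and 1609 CPM in PAD2KO. The groups overlapped in both batches, and the difference over both was 0.22 ± 0.122 (edgeR adjusted p = 0.728).

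Ndn was at 114.5, 131.4 and 144.6 CPM in WT and 131.4, 134.9 and 127.5 CPM in PAD2KO of batch 1. In the other batch the levels were 99.0, 78.3 and 86.6 CPM in WT and 100.4 and 94.97 CPM in PAD2KO. Within each batch the genotypes overlapped. Its difference over both batches, 0.07 ± 0.0961 (edgeR adjusted p = 0.922), had the smallest error of the 7.

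**Figure D3:**
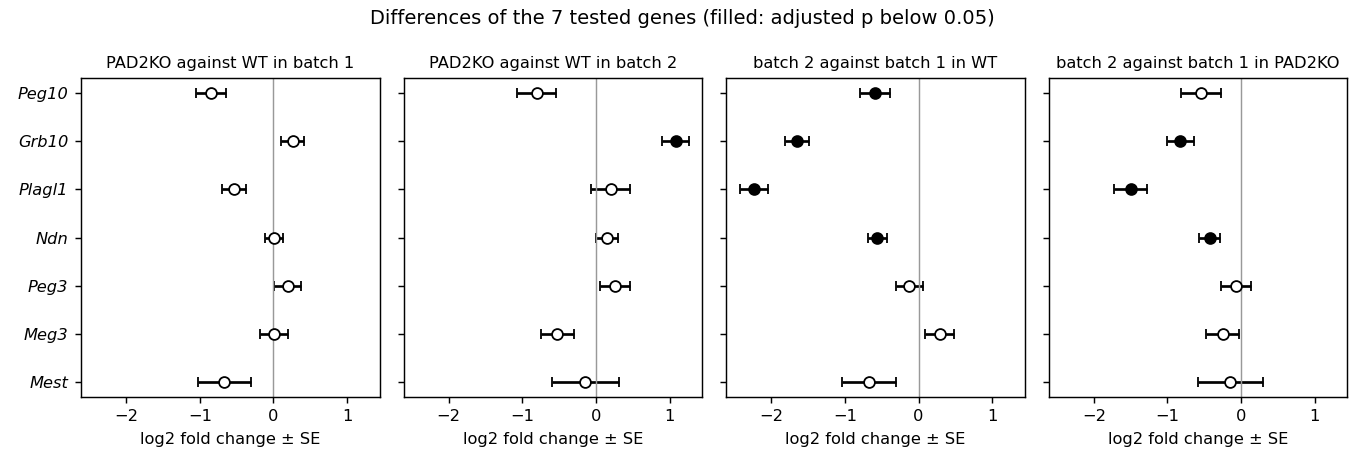
Fitted log2 fold changes (horizontal axes) of the 7 tested genes with bars of 1 SE in the 4 comparisons within a batch or a genotype, filled where the edgeR adjusted p was below 0.05. Grb10 alone is filled in the genotype panels (1.08 in batch 2), and Plagl1, Grb10 and Ndn are filled in both batch panels.

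The second question was how the members differed between the batches within a genotype. In WT cells, 4 of the 7 tested members were lower in batch 2 and 0 were higher, with 22.3% of all 9932 genes passing (1161 higher and 1051 lower). In PAD2KO cells, 3 were lower and 0 higher, with 18.7% passing (946 higher and 907 lower). The members' median differences were -0.59 in WT and -0.43 in PAD2KO, where the medians over all genes were within 0.02 of 0.

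Plagl1 showed the largest batch difference of the 7 tested members in both genotypes. From the values above, the highest batch 2 library, at 36.9 CPM, was below the lowest of batch 1, at 67.4 CPM. The group means were 127.7 ± 19.5 (SD, n = 3) and 27.0 ± 4.05 (SD, n = 3) CPM in WT, a difference of -2.24 ± 0.193 or 4.71-fold, with an edgeR adjusted p of 8.22e-10. In PAD2KO they were 88.3 ± 18.6 (SD, n = 3) and 31.0 ± 8.33 (SD, n = 2) CPM, a difference of -1.50 ± 0.221 or 2.83-fold, with an edgeR adjusted p of 1.50e-05. Both calls were kept in all 17 alternatives. The effective length assigned to Plagl1 varied from 1791 to 4350 bases between libraries, and with offsets from these lengths the differences were -2.47 and -1.97.

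Grb10 was also lower in batch 2 in both genotypes. Its means were 1192 ± 162.6 (SD, n = 3) and 378.3 ± 56.3 (SD, n = 3) CPM in WT, 3.14-fold apart, a difference of -1.65 ± 0.165 with an edgeR adjusted p of 2.29e-06. In PAD2KO they were 1427 ± 112.8 (SD, n = 3) and 804 ± 267.9 (SD, n = 2) CPM, 1.78-fold apart, a difference of -0.83 ± 0.181 with an edgeR adjusted p of 0.00483. The batches did not overlap in either genotype, and all 17 alternatives kept both calls. In PAD2KO the value was -1.22 without PAD2KO 7 and -0.52 without PAD2KO 6. The difference between these batch effects is the same 0.82 as the genotype test above.

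Ndn was lower in batch 2 by a smaller amount. The means were 130.2 ± 15.1 (SD, n = 3) and 88.0 ± 10.4 (SD, n = 3) CPM in WT, a difference of -0.56 ± 0.1295 (edgeR adjusted p = 0.00183), kept in all 17 alternatives. In PAD2KO they were 131.2 ± 3.71 (SD, n = 3) and 97.7 ± 3.87 (SD, n = 2) CPM, a difference of -0.43 ± 0.143 (edgeR adjusted p = 0.0364). The batches did not overlap in either genotype. The PAD2KO call was lost in 9 of 17 alternatives: in DESeq2 (adjusted p = 0.137), without the filter on low counts (0.0685), with length offsets (0.111), and without WT 3 or any of the PAD2KO libraries (adjusted p from 0.0502 to 0.199).

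Peg10 was lower in batch 2 in WT, at -0.59 ± 0.205 (edgeR adjusted p = 0.0389), although WT 4 of batch 1, at 38.9 CPM, and WT 5 of batch 2, at 39.3 CPM, overlapped. This call was lost in DESeq2 (adjusted p = 0.1303), with length offsets (0.134) and without WT 1 (0.0727), WT 3 (-0.40, adjusted p = 0.251), WT 6 (0.156) or WT 7 (0.0958). In PAD2KO the difference was -0.55 ± 0.273 (edgeR adjusted p = 0.174). Mest differed by -0.67 ± 0.367 in WT (edgeR adjusted p = 0.209) and Meg3 by 0.29 ± 0.192 (edgeR adjusted p = 0.322). Peg3 differed by -0.13 ± 0.183 in WT (edgeR adjusted p = 0.689) and by -0.06 ± 0.204 in PAD2KO (edgeR adjusted p = 0.878).

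Marker lists moved in mixed ways between the batches, where 22.3% of all genes passed in WT and 18.7% in PAD2KO, in either direction. Of 8 tested fibroblast markers, 4 were lower and 0 higher in WT of batch 2, and 5 were lower and 2 higher in PAD2KO. Their lower sum rested largely on collagen genes: Col3a1 averaged 6654 CPM in WT of batch 1 and 1461 CPM in WT of batch 2. Vim averaged 1425 and 1643 CPM in the same groups, and Pdgfra 598 and 686 CPM, without passing. In PAD2KO the higher genes were Vim (0.50) and Thy1 (0.88). Of 4 mesothelium markers, 3 were lower in WT and 1 in PAD2KO, and 0 were higher. Of the 5 tested smooth muscle and pericyte markers, 5 were lower in WT and 2 in PAD2KO. The untested Rgs5 of that list was at 0.779 to 3.55 CPM in WT of batch 1 and at 7.05 to 12.7 CPM in WT of batch 2, and Cspg4 averaged 1.02 and 4.25 CPM. The part of these markers' cells in the batch differences was not tested.

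**Figure D4:**
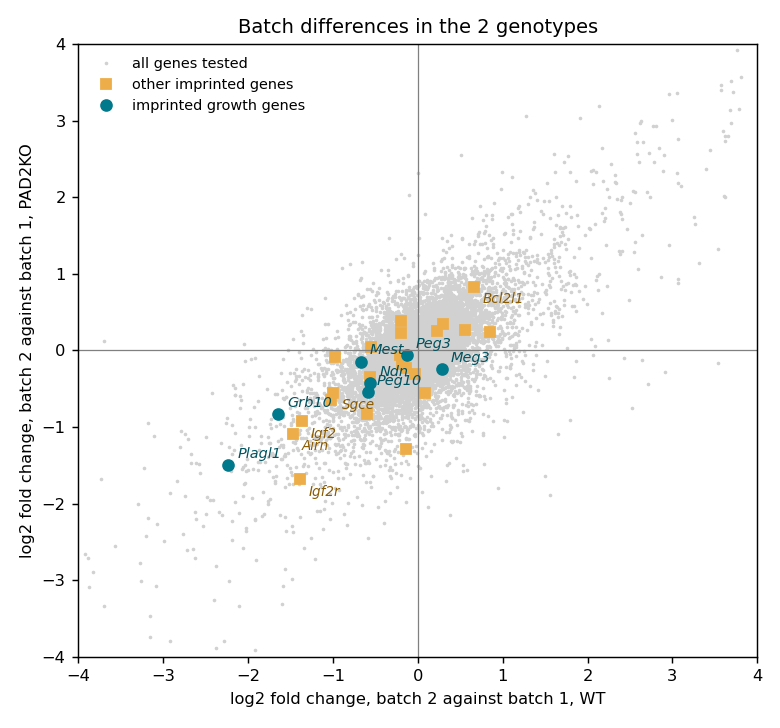
Log2 fold change of batch 2 against batch 1 in WT (horizontal axis) and in PAD2KO (vertical axis) for the tested members (circles), other imprinted genes (squares) and all 9932 genes tested (grey), 37 of which lie outside the axes. Plagl1 (-2.24 and -1.50) and Grb10 (-1.65 and -0.83) lie in the lower left with Igf2r and Airn, and Peg3 lies near the origin.

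The 3 members under the filter are given by their counts. H19 had 14, 27 and 47 counts in WT 1, WT 3 and WT 4 and 56, 8 and 9 in PAD2KO 1, PAD2KO 2 and PAD2KO 3. In batch 2 it had 2, 0 and 4 counts in WT 5, WT 6 and WT 7 and 5 and 7 in PAD2KO 6 and PAD2KO 7. Every batch 2 library was below every batch 1 library of its genotype, on the CPM scale, narrowly in PAD2KO (5.49 against 5.56 CPM), and the libraries of batch 1 spread widely. Summed over the group, H19 was at 22.3 CPM (95% exact Poisson interval 17.9 to 27.5 CPM) in WT of batch 1 and 1.65 CPM (0.605 to 3.59 CPM) in WT of batch 2. In PAD2KO it was at 18.2 CPM (14.3 to 22.9 CPM) and 4.74 CPM (2.45 to 8.28 CPM). These summed levels carry no TMM factors, and their intervals cover counting error only.

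The mean log2 difference of H19 (pseudocount of 1 CPM) between batches within genotypes was -2.18. A two-sided exact permutation test over the 200 splits of libraries within genotypes gave p = 0.02, or 0.12 after Benjamini-Hochberg adjustment over the 6 such tests on these 3 genes; the smallest p this design allows is 0.005. In the alternative fit of the WT libraries alone, H19 passed the count filter, which its batch 1 level decided. Its difference there was -3.66 ± 0.694 (edgeR adjusted p = 0.00171 over 9994 genes), and because of that entry this p is not support. The fit to all libraries without a filter on low counts gave -3.67 ± 1.34 for H19 in WT (edgeR adjusted p = 0.171). Between genotypes within batches the mean log2 difference of H19 was 0.31 (exact permutation p = 0.69, adjusted 0.72).

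Dlk1 had 3, 3 and 1 counts in WT and 4, 1 and 0 in PAD2KO of batch 1, and 2, 2 and 6 in WT and 1 and 1 in PAD2KO of batch 2. Cdkn1c had 2, 2 and 6 counts in WT and 3, 1 and 2 in PAD2KO of batch 1, and 2, 1 and 1 in WT and 2 and 0 in PAD2KO of batch 2. Dlk1 had over 3 counts in 2 libraries and Cdkn1c in 1, so both were mostly at or under the limit that 0 counts allow. The genotype difference was -0.73 for Dlk1 (exact permutation p = 0.135, adjusted 0.28) and -0.40 for Cdkn1c (exact permutation p = 0.28, adjusted 0.42), so no difference was detectable at this depth. The batch difference was 0.17 for Dlk1 (exact permutation p = 0.72) and -0.62 for Cdkn1c (exact permutation p = 0.14, adjusted 0.28).

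Imprinted genes lie in clusters, so genes near the members were counted next. Of 52 listed neighbours, 21 were tested. In the 3 genotype comparisons 0 passed in edgeR or DESeq2, and those with an unadjusted edgeR p under 0.05 numbered 1 over both batches, 0 in batch 1 and 1 in batch 2. Over all 9932 genes such genes numbered 759, 545 and 1433. Between batches, 6 of 21 were lower and 0 higher in WT, and 5 were lower and 0 higher in PAD2KO (DESeq2 called 1 there), beside 22.3% and 18.7% of all genes called in either direction; the medians were -0.28 in both. Of all 9932 genes, 1051 were lower and 1161 higher in WT, and 907 were lower and 946 higher in PAD2KO. The neighbours were not tested as a set against these numbers. Those with the smallest p in WT were Sgce (-1.003 ± 0.156, edgeR adjusted p = 1.45e-05), Zim1, a zinc-finger gene next to Peg3 (-1.02 ± 0.219), and Phactr2, a phosphatase and actin regulator next to Plagl1 (-1.68 ± 0.393). In PAD2KO the 5 were Phactr2 (-1.70), Osbpl5 (-0.47), Sgce (-0.55), Dhcr7 (-0.79) and Zim1 (-0.65).

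Zim1 was lower in both genotypes and Peg3 beside it did not pass; the pair was not tested against each other. Igf2, the insulin-like growth factor gene that shares enhancers with H19 and was picked out after its values were seen, was at 20.3, 44.0 and 34.2 CPM in WT of batch 1 and 16.0, 10.96 and 10.6 CPM in WT of batch 2. Its WT batches did not overlap, and the difference was -1.37 ± 0.392 (edgeR adjusted p = 0.0178). In PAD2KO it was at 35.6, 13.9 and 15.4 CPM and at 15.4 and 7.06 CPM, a difference of -0.93 ± 0.480 (edgeR adjusted p = 0.208).

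A list of other imprinted genes, which shares some entries with the neighbours, had 22 tested. Over both batches and in batch 1, 0 passed in edgeR or DESeq2, with 3 and 2 at an unadjusted edgeR p under 0.05. Such a p was reached by 759 and 545 of all 9932 genes. In batch 2, 1 was lower in PAD2KO: Dcn, which encodes the matrix proteoglycan decorin, is imprinted in the placenta and is a fibroblast marker (-1.56 ± 0.251, edgeR adjusted p = 0.00740). Between batches, 7 were lower and 1 higher in WT, and 6 lower and 1 higher in PAD2KO, again beside 22.3% and 18.7% of all genes, with medians of -0.20 and -0.21. Igf2r, the receptor that clears IGF2, differed by -1.39 ± 0.131 in WT and -1.68 ± 0.152 in PAD2KO. Airn, the noncoding RNA that overlaps Igf2r on the opposite strand, differed by -1.47 ± 0.225 and -1.09 ± 0.255. The sources used here do not give whether counting used strand, so reads of Igf2r and Airn may not be separable. The gene that was higher in both was Bcl2l1, which encodes the survival protein BCL-XL (0.66 and 0.83).

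The insulin and IGF axis, on which Grb10 acts, had 17 of 18 genes tested. Over both batches 1 was lower in PAD2KO, Igfbp3, which encodes an IGF-binding protein (-1.27 ± 0.218, edgeR adjusted p = 0.0119). In batch 1, 0 passed in edgeR or DESeq2, with 1 at an unadjusted p under 0.05, beside 545 of all 9932 genes. In batch 2, where 3.11% of all genes passed, 1 was lower, Igfbp5 (-0.66), and DESeq2 called 3 of the list. In batch 1 Igfbp5 had the opposite sign (0.19 ± 0.120, edgeR adjusted p = 0.922). The test of whether its genotype difference differed between the batches passed (-0.84 ± 0.178, edgeR adjusted p = 0.00976). Between batches 4 were higher and 6 lower in WT, where 22.3% of all genes passed, and 3 higher and 5 lower in PAD2KO, where 18.7% passed. Igf1, the growth factor itself, fell from 116.2 ± 19.5 (SD, n = 3) to 32.9 ± 6.58 (SD, n = 3) CPM in WT. The difference of Igf1 was -1.82 ± 0.183 in WT and -1.85 ± 0.205 in PAD2KO (edgeR adjusted p = 1.43e-08 and 1.93e-07). Igfbp5 went the other way, from 467.3 to 2170 CPM in WT. Its batch difference was 2.22 ± 0.123 in WT and 1.38 ± 0.13 in PAD2KO (edgeR adjusted p = 1.31e-13 and 1.46e-08).

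Among cyclin-dependent kinase inhibitors of the CIP/KIP and INK4 families with cyclins and kinases of the G1 phase, relatives and targets of p57, 16 of 18 were tested. Over both batches and in batch 1, 0 passed in edgeR or DESeq2, with 1 and 4 at an unadjusted edgeR p under 0.05. Such a p was reached by 759 and 545 of all 9932 genes. In batch 2, Cdk6 was higher in PAD2KO (0.78 ± 0.153, edgeR adjusted p = 0.00291). In batch 1 its value had the opposite sign (-0.32 ± 0.129, edgeR adjusted p = 0.726), with WT at 108.8 to 141.0 CPM above PAD2KO at 91.6 to 98.9 CPM. Its difference between batches passed as well (1.10 ± 0.200, edgeR adjusted p = 0.00235). Between batches 4 were higher and 2 lower in WT, and 5 higher and 3 lower in PAD2KO, against the same shares of 22.3% and 18.7%. Of 15 Notch pathway genes, listed for Dlk1, 5 were tested, and 0 passed by genotype in edgeR or DESeq2 (1, 0 and 2 at an unadjusted edgeR p under 0.05 over both batches, in batch 1 and in batch 2). All 9932 genes gave 759, 545 and 1433, which also stand beside the proliferation genes below. Rbpj, the DNA-binding partner of Notch, was higher in batch 2 in both genotypes (1.01 and 1.31). Of 10 proliferation genes, 0 passed by genotype in edgeR or DESeq2 (0, 0 and 1 at an unadjusted edgeR p under 0.05), and Pcna was higher in batch 2 (0.58 in WT and 0.55 in PAD2KO).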

How the data were processed

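Bulk RNA was profiled in 11 libraries of sorted mouse neonatal lung fibroblasts; silica columns were used for extraction, per the labels' protocols, and libraries were made with a SMARTer kit for SmartSeq2, which carries no molecular identifiers. The authors deposited a single table with estimated counts, abundances in TPM and effective gene lengths in bases for each library. The submitters' processing notes name fastp, Salmon (1.3.2), DESeq2 (1.46.0) and the build GRCm39, with no roles given. Estimated counts divide reads between similar sequences by a model.

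Entries without a symbol (23133 of 56065; 3.80% to 6.40% of counts) were left out. Counts were summed per symbol, rounded and tested in R 4.3.3 with edgeR 4.0.16, using TMM, filterByExpr on genotype (9932 genes), robust quasi-likelihood fits, Benjamini-Hochberg adjustment, threshold 0.05. Terms for batch and genotype gave the comparison over both batches; 1 mean per genotype and batch gave the others and the interaction. Log2 CPM had a prior count of 2. The SE of an edgeR difference was worked back from the test, as the size of the difference divided by the square root of its F statistic. Permutation tests used NumPy 2.4.6, and Poisson intervals used SciPy 1.17.1. The model was also run on simulated counts with planted changes. These had the same spread for every gene and no other batch or genotype difference, so they do not show its error rate in these data. Alternatives were DESeq2 1.42.0, RLE scaling, other count filters, length offsets, a replicate block, fewer groups, no batch term and leaving out each library.

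All 10 members are described. Other genes are named if they passed a genotype comparison, else up to 3 per list by p, with exceptions stated. The members, lists and tests were chosen with earlier results of these data known, including the Peg10 call, which is therefore not independent support. Promoter windows came from RefSeq (GRCm38.p6), a build other than that of the counts. WT 5 and WT 6 were the most alike pair within a group (chi-square per degree of freedom 1.52, other pairs 2.18 to 3.40) and were kept as 2 libraries.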

Additional observations from a re-analysis of the deposited data

How the results depend on the processing

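Of the single-gene values under the alternatives, 677 kept their direction and side of the threshold, 24 lost a call, 5 gained one and 23 changed sign. The batch differences of Plagl1 and Grb10 kept their calls in both genotypes under all 17 alternatives that could be fitted to them. The number of members called over both batches was 1; it was 2 with DESeq2 and 0 with length offsets, the replicate block or no batch term, and 0 to 1 when a library was left out. In batch 1 it was 0, and 1 with no filter on low counts. In batch 2 it was 1, and 0 with the replicate block. For the interaction it was 0, 1 with DESeq2 or with no filter, and 0 to 1 when a library was left out (1 without PAD2KO 6). The causes were not tested.

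Values that changed sign were small. With length offsets Meg3 in batch 1 went from 0.01 to -0.23 and Mest between batches in PAD2KO from -0.15 to 0.0843. When a library was left out, Meg3 ranged from -0.31 to 0.21 in batch 1 and from -0.45 to 0.0695 between batches in PAD2KO. Mest ranged from -0.53 to 0.16 in batch 2 and from -0.54 to 0.22 between batches in PAD2KO. Ndn ranged from -0.0683 to 0.0984 in batch 1 and Plagl1 from -0.10 to 0.45 in batch 2. Peg3 ranged from -0.24 to 0.0564 between batches in WT and from -0.29 to 0.12 in PAD2KO. The interaction ranged from -0.21 to 0.24 for Peg10 and from -0.16 to 0.25 for Peg3.

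Counts over all genes moved by more than 1.5 times as follows. Over both batches 19 became 2 with length offsets, 4 with the replicate block, 4 without the batch term, 142 with no filter, 30 with DESeq2, 11 with at least 10 counts in every library and 8 at the lowest when a library was left out. In batch 1, 13 became 2 with offsets, 8 with the block, 58 with no filter, 22 with only the 2 groups compared, 7 with at least 10 counts, and 5 at the lowest without a library. In batch 2, 309 became 89 with offsets, 529 with no filter, and 65 without PAD2KO 7. Between batches, 2212 became 1356 with offsets in WT, and 1853 became 864 with offsets, 1219 with DESeq2 and 1079 at the lowest without a library in PAD2KO. For the interaction 161 became 26 with offsets, 323 with no filter and 33 without PAD2KO 7.

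WT and PAD2KO libraries share the numbers 1, 3, 6 and 7 within a batch. The deviations of same-numbered libraries from their group means correlated by 0.0487, 0.0104, 0.0297 and 0.00152 over genes, and 4 of 8 libraries correlated best with their own number. With so few libraries in a group, these values cannot tell whether same-numbered libraries were paired. With the replicate block Peg10 was at -0.89 over both batches and Grb10 at 1.14 in batch 2, and neither passed (edgeR adjusted p = 0.224 and 0.0781). The batch comparisons could not be fitted with the block, because no number is in both batches. Mest had no value with at least 10 counts in every library. At these depths Dlk1 and Cdkn1c were near 3 counts a library, and the 2 PAD2KO libraries of batch 2 limit every comparison that uses them.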

Other observations

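The deposited effective lengths of some members varied between libraries. That of Dlk1 varied from 277.3 to 1489 bases, 5.37-fold, Cdkn1c from 415.4 to 1655 bases, Meg3 from 790.2 to 2650 bases, Mest from 844.9 to 2347 bases and H19 from 600.5 to 1443 bases. Ndn (3449 to 3480 bases), Peg10 (6325 to 6434 bases), Peg3 (6105 to 6742 bases) and Grb10 (4155 to 4709 bases) had nearly constant lengths. TPM divides by this length and CPM does not, so the levels of the first 5 genes and of Plagl1 depend more on the scale than those of the other 4.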
